A study of Mus musculus with 8 samples.

Results

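Regions of the autosomes in 3 windows, on chromosomes 4, 5 and 14, were examined for islands of Brdt ChIP-seq signal in mouse male germ cells. An island is a stretch in which ChIP reads clustered above a control library, and the windows were chosen by the covered share of their bases in these same lists. In mm9 coordinates they run from 42 to 43 Mb of chromosome 4, from 11 to 12 Mb of chromosome 5 and from 42 to 46 Mb of chromosome 14. An island was counted as a member when its start lay inside a window. The windows held 1202 of the 426082 islands of the 4 deposited lists, with 420 in BD1del round spermatids, 227 in BD1del spermatocytes, 369 in wild-type round spermatids and 186 in wild-type spermatocytes. A stretch called in several lists counts once in each.

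The BD1del lists came from post-meiotic round spermatids and meiotic spermatocytes of mice whose Brdt lacks its first bromodomain (BD1). Their strain, chromatin preparation and number of animals, and the age of the mice of either genotype, are not given in the sources used here. The wild-type lists came from the same stages of C57BL/6 mice, for which the labels give fractions pooled from 10 mice and chromatin cut with MNase to about 200 bp. Every stage and genotype had 1 anti-Brdt ChIP library and 1 input library, so no value below has a replicate error and no comparison between lists has a test. The inputs are seen here only through each list's control counts, and the stage labels could not be checked against marker genes, since island lists hold no expression values. Genes inside the windows were not analysed here.

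Brdt belongs to the BET proteins, which carry a pair of bromodomains that bind acetylated lysines of histone tails. It is made in the testis from meiosis on, and the first of its bromodomains binds histone H4 acetylated at several lysines. Mice that lack this domain are known to be male sterile, with defects in the shaping of spermatids. In round spermatids the chromatin still carries nucleosomes, before histones are hyperacetylated and replaced in elongating cells.

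The 4 lists differed in depth and form. Per ChIP read the control library held 5.45 reads in BD1del round spermatids and 5.64 in BD1del spermatocytes, against 3.79 in wild-type round spermatids and 1.79 in wild-type spermatocytes. The lists held 201828, 112671, 74968 and 36615 islands in that order. The labels of the BD1del lists name another set of read tags than those of the wild-type lists, so genotype, read set and control depth cannot be told apart in any comparison between genotypes below. The fold given for an island is the authors' ratio of its ChIP reads to its control reads scaled by library size. Islands with 0 control reads, for which this ratio is undefined, numbered 1030 in BD1del round spermatids and 87 in BD1del spermatocytes. They numbered 219 in wild-type round spermatids and 11 in wild-type spermatocytes. How their deposited fold was set is not given in the sources used here.

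Over all 3 windows and with all deposited islands, less of the sequence was covered in BD1del than in wild type at both stages. In the pooled windows this order turned round when islands of fold below 2 were left out, but not under a strict FDR limit. All islands covered 8.41% of the 6 Mb in BD1del round spermatids and 7.99% in BD1del spermatocytes, against 23.8% in wild-type round spermatids and 25.4% in wild-type spermatocytes. In the flanks, 2 Mb on either side of each window, the same lists covered 4.79%, 5.53%, 4.07% and 3.04%. The order of the genotypes was thus turned round in the pooled flanks, where the BD1del lists were the denser ones. The flank of chromosome 5 differed in round spermatids, at 4.54% in BD1del against 5.23% in wild type. BD1del was also the denser over all autosomes. There islands covered 5.66% in BD1del round spermatids, 6.18% in BD1del spermatocytes, 4.83% in wild-type round spermatids and 3.46% in wild-type spermatocytes. The window was 1.76 times as densely covered as the flank in BD1del round spermatids and 1.44 times in BD1del spermatocytes, against 5.85 times in wild-type round spermatids and 8.36 times in wild-type spermatocytes. The windows were picked for their coverage, so these ratios describe the choice and are no evidence of enrichment. When only islands with a deposited FDR no higher than 1e-10 were kept, the ratio was 0.979 and 0.688 in the BD1del lists in that order, and 3.27 and 5.14 in the wild-type lists. The windows were then covered to 3.46% and 2.11% in the BD1del lists, against 4.24% and 5.29% in the wild-type lists. Single windows differed under this FDR limit. In round spermatids BD1del was the denser on chromosome 4, at 2.98% against 2.34%, and slightly so on chromosome 14, at 3.35% against 3.245%. In spermatocytes BD1del was the denser on chromosome 14, at 2.405% against 0.635%. Elsewhere wild type was the denser. With islands of fold at least 2 alone, the windows were covered to 5.85% in BD1del round spermatids and 3.91% in BD1del spermatocytes, against 3.61% in wild-type round spermatids and 0.933% in wild-type spermatocytes. The ratios to the flank were then 1.25 and 0.823 in the BD1del lists and 1.22 and 1.501 in the wild-type lists. Under the same fold limit, wild type stayed the denser in round spermatids on chromosome 5, at 8.74% against 6.70% in BD1del. It also did so in spermatocytes on chromosome 4, at 2.94% against 1.58%. In the other windows and stages the BD1del list was the denser.

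**Figure D1:**
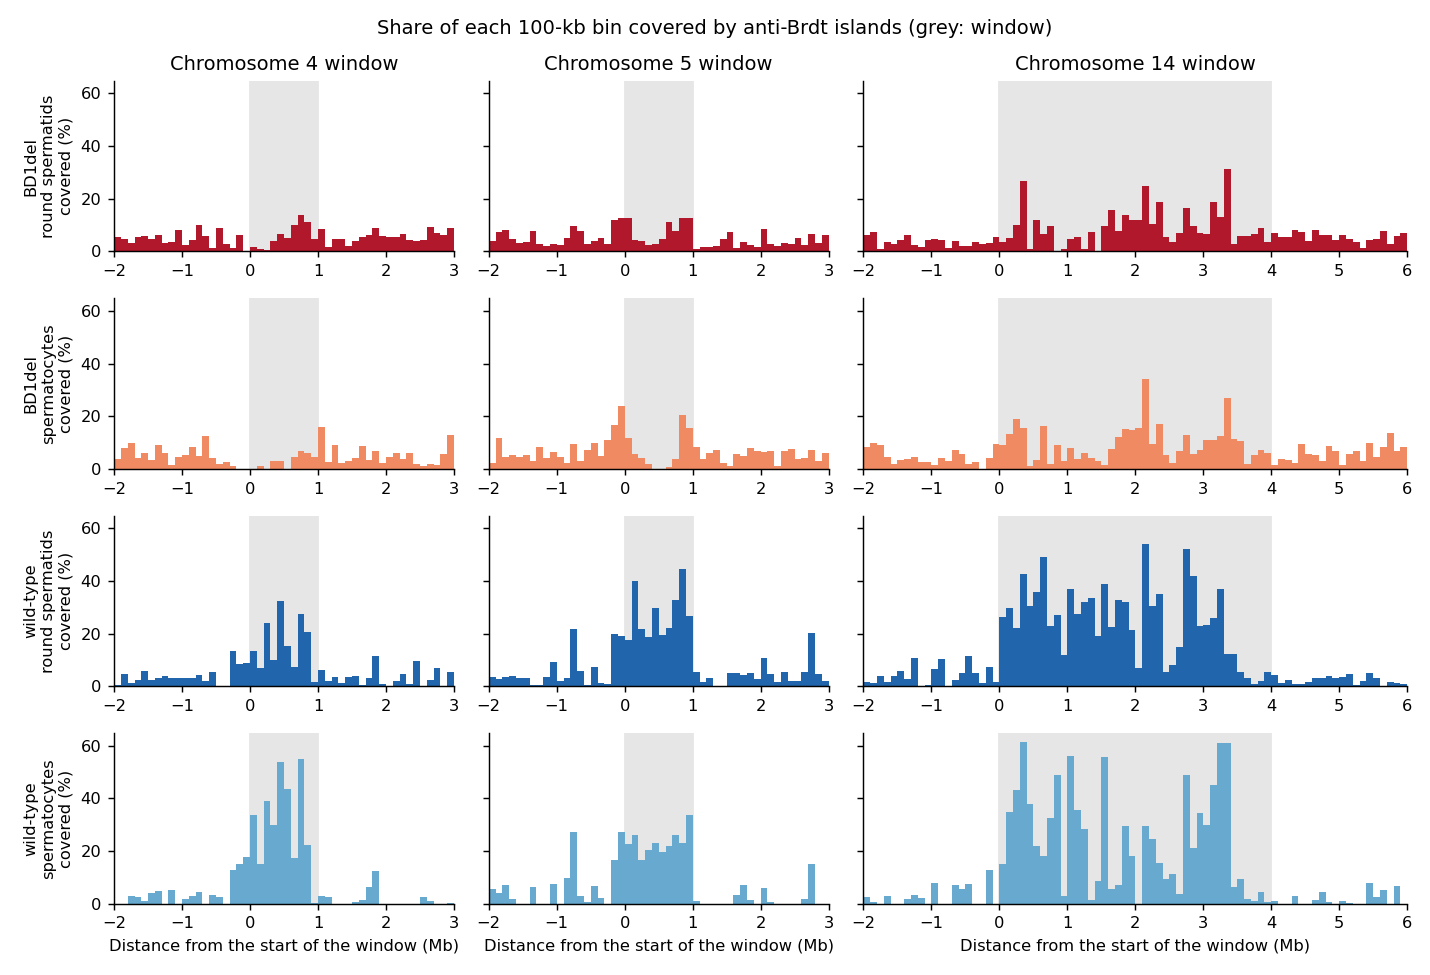
Share of each 100-kb bin covered by anti-Brdt islands (y axis, percent) against the distance from the start of the window (x axis, Mb), with 1 row per list and 1 column per window; the window is grey and 2 Mb of flank is shown on either side. The BD1del lists show narrow peaks in parts of the windows, while the wild-type lists are high over most of each grey area, from shortly before it on chromosomes 4 and 5, and fall back before its end on chromosomes 4 and 14.

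Set among all 2427 autosomal bins of 1 Mb, the 6 bins of the windows ranked from 84 to 804 by covered share in BD1del round spermatids and from 99 to 2385 in BD1del spermatocytes, where rank 1 is the densest. Their ranks ran from 24 to 43 in wild-type round spermatids and from 26 to 35 in wild-type spermatocytes. Bins covered to at least 20% made up 0.206% of the autosomal bins in BD1del round spermatids, 0.371% in BD1del spermatocytes, 1.28% in wild-type round spermatids and 1.40% in wild-type spermatocytes. No window bin reached 20% in the BD1del lists, against 4 in wild-type round spermatids and 5 in wild-type spermatocytes. At the edge of this limit, the bin from 44 Mb on chromosome 14 had 19.8% of its bases in islands in wild-type spermatocytes, and the bin from 45 Mb had 22.1%. The densest neighbouring bin, from 10 Mb on chromosome 5, reached 9.38% in wild-type spermatocytes.

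The chromosome 4 window was the one in which the stages differed most in wild type. Islands covered 5.82% of it in BD1del round spermatids and 2.90% in BD1del spermatocytes, against 16.0% in wild-type round spermatids and 31.0% in wild-type spermatocytes. With all deposited islands the stages thus stood in opposite order in the genotypes. The flank was covered to 5.24% and 5.02% in the same BD1del lists, and to 3.70% and 2.81% in the wild-type lists. The window was therefore less densely covered than its flank in BD1del spermatocytes, where the ratio was 0.578, while it was 11.02 in wild-type spermatocytes. With 2385 as its rank, this bin was among the sparsest of all autosomal bins in BD1del spermatocytes.

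Islands that started in this window numbered 63 in BD1del round spermatids and 19 in BD1del spermatocytes, against 61 in wild-type round spermatids and 50 in wild-type spermatocytes. The dense stretch of the wild-type lists began before the window, since 10.3% in round spermatids and 15.2% in spermatocytes were covered between 41.7 and 42.0 Mb. It ended before the end of the window, in a last bin covered to 1.80% in wild-type round spermatids and 0.4% in wild-type spermatocytes. The limits of these stretches were set after the profiles were seen. Inside, 100-kb bins of wild-type spermatocytes ran from 15% to 54.8% before that last bin, with the highest share in the bin that starts at 42.7 Mb.

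The BD1del lists followed another course across the chromosome 4 window. From 42.0 to 42.6 Mb they covered 3.07% in round spermatids and 1.17% in spermatocytes, where the wild-type lists covered 17.0% and 35.8%. Of the next 300 kb, up to 42.9 Mb, islands covered 11.7% in BD1del round spermatids and 5.87% in BD1del spermatocytes, against 18.5% in wild-type round spermatids and 31.5% in wild-type spermatocytes. Control reads were denser there than in the preceding stretch in every list, at 57.2 per kb of island in BD1del round spermatids, 60.3 in BD1del spermatocytes, 55.2 in wild-type round spermatids and 50.1 in wild-type spermatocytes. In the preceding stretch they were at 38.7, 41.3, 51.7 and 49.4 per kb in that order.

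**Figure D2:**
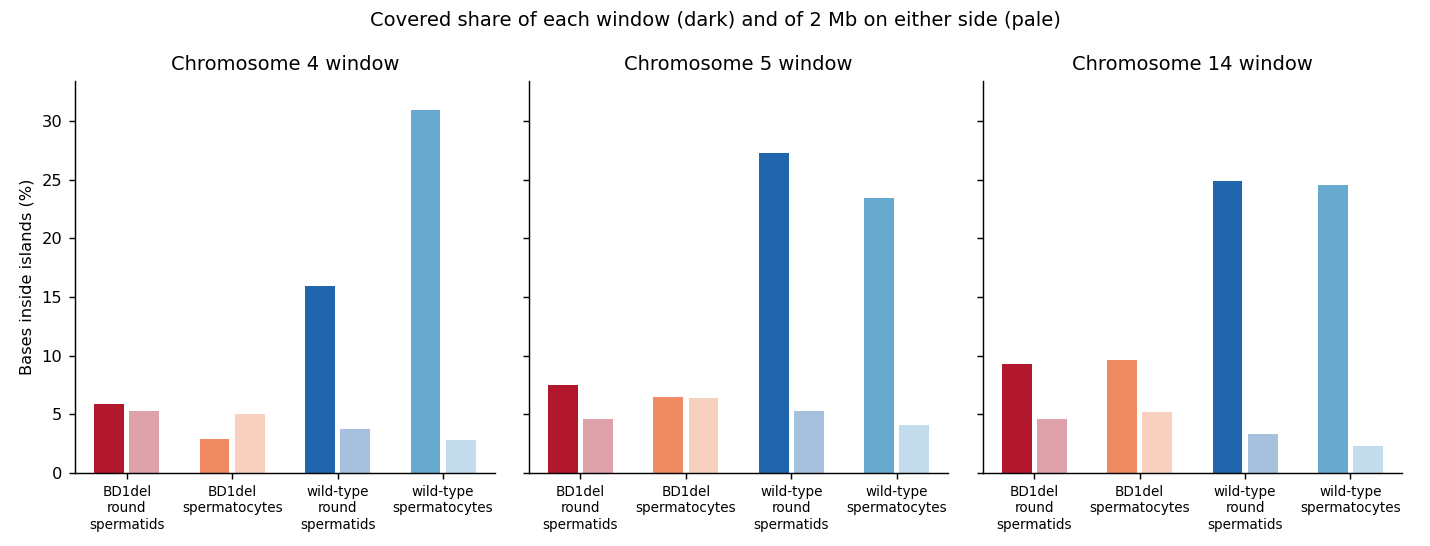
Bases inside islands (y axis, percent) for each list in the 3 windows, with dark bars for the window and pale bars for 2 Mb on either side of it. In BD1del the window bars are 0.578 to 2.02 times as high as their flank bars, and in wild type 4.31 to 11.02 times.

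The longest member of the chromosome 4 window was an island of 24.8 kb in wild-type spermatocytes, from 42072001 to 42096800, with a deposited fold of 1.44. It held 894 ChIP and 1114 control reads. BD1del round spermatid islands covered 0.806% of it and BD1del spermatocyte islands 0%, while wild-type round spermatid islands covered 27.4%. In the other lists the longest members spanned 3 kb in BD1del round spermatids, 3.60 kb in BD1del spermatocytes and 8.80 kb in wild-type round spermatids. Among members with at least 10 control reads, the highest fold was 11.9 in BD1del round spermatids, from 42306201 to 42307000. In BD1del spermatocytes it was 10.4, from 42335401 to 42337000, an island that no other list touched. The highest fold was 8.95 in wild-type round spermatids, in a single 200-base island from 42721601 to 42721800 that lay inside a wild-type spermatocyte island. In wild-type spermatocytes it was 4.32, from 42262401 to 42263800, and no other list held an island there. The most ChIP reads of the window in that list, 1063, lay in an island of 20.2 kb from 42584201 to 42604400, at a fold of 1.16 and with 81.5 control reads per kb. BD1del round spermatid islands covered 0.990% of it and BD1del spermatocyte islands 0%.

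Islands on chromosome 5 covered 7.5% of the window in BD1del round spermatids and 6.42% in BD1del spermatocytes, against 27.3% in wild-type round spermatids and 23.4% in wild-type spermatocytes. The flank was covered to 4.54% and 6.38% in the BD1del lists in the same order, and to 5.23% and 4.08% in the wild-type lists. BD1del spermatocytes thus showed nearly the same coverage inside and outside, a ratio of 1.01, where wild-type spermatocytes had a ratio of 5.75. In round spermatids the ratio was 1.65 in BD1del and 5.23 in wild type. Members numbered 61 in BD1del round spermatids, 32 in BD1del spermatocytes, 81 in wild-type round spermatids and 38 in wild-type spermatocytes.

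The covered shares of its 10 bins of 100 kb had a Spearman correlation of 0.624 between the wild-type stages, as a description. The bin from 11.8 Mb was the densest in wild-type round spermatids, at 44.6%, and was covered to 23.0% in wild-type spermatocytes. Each 100-kb bin of this window was covered to between 17.4% and 44.6% in wild-type round spermatids and to between 16.8% and 33.8% in wild-type spermatocytes. The dense stretch also took in the last 200 kb before the window, from 10.8 Mb, with 19.6% in wild-type round spermatids and 22.1% in wild-type spermatocytes. Its end coincided with that of the window, as the next 100 kb were covered to 5.40% in wild-type round spermatids and 1.2% in wild-type spermatocytes. The BD1del lists were dense at both ends of this stretch and sparse between them. Before the window, from 10.8 to 11 Mb, they covered 12.3% in round spermatids and 20.4% in spermatocytes. From 11.1 to 11.8 Mb they covered 5.29% in BD1del round spermatids and 2.31% in BD1del spermatocytes, against 26.3% in wild-type round spermatids and 22.1% in wild-type spermatocytes. In the last 200 kb of the window the BD1del values were 12.7% and 18.1%, and the wild-type values 35.7% and 28.4%, in the same order.

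Control reads followed the course of the BD1del coverage on chromosome 5. In BD1del spermatocytes the islands held 72.2 control reads per kb before the window, 44.0 in its middle and 79.4 in its last 200 kb. The wild-type spermatocyte islands held 57.2, 47.1 and 61.6 per kb in the same 3 stretches. Of the 61 BD1del round spermatid members of this window, 7 touched each of the other lists, not always at the same bases. That is 11.5%, beside 3.52% of the whole list. Among them the longest member of BD1del round spermatids, from 11915801 to 11921200, was covered to 100% by each of the other lists. It spanned 5.40 kb at a fold of 2.34, from 213 ChIP and 496 control reads. At the same locus the longest BD1del spermatocyte member, from 11915401 to 11921400, had a fold of 1.55, and the longest wild-type round spermatid member, from 11914201 to 11927600, a fold of 1.58. The longest wild-type spermatocyte member lay elsewhere, from 11591001 to 11608200, with a fold of 1.35. It was covered to 65.1% in wild-type round spermatids and to 0% in both BD1del lists.

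The highest fold on chromosome 5 was lower in wild-type spermatocytes than in the other lists. With at least 10 control reads, it was 12.9 in BD1del round spermatids, from 11206201 to 11206600, and 10.6 in BD1del spermatocytes, from 11024201 to 11024800. It was 5.05 in wild-type round spermatids, from 11172401 to 11174800, against 2.19 in wild-type spermatocytes, from 11462001 to 11463600. This last island was covered to 100% in BD1del round spermatids, to 0% in BD1del spermatocytes and to 37.5% in wild-type round spermatids.

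The chromosome 14 window, which spans 4 Mb, showed almost the same coverage at both stages within each genotype. Islands covered 9.29% in BD1del round spermatids and 9.65% in BD1del spermatocytes, against 24.9% in wild-type round spermatids and 24.6% in wild-type spermatocytes. The flank was covered to 4.60% and 5.20% in the BD1del lists and to 3.28% and 2.25% in the wild-type lists, in the same order. Here both BD1del lists were also denser inside than outside, with ratios of 2.02 in round spermatids and 1.86 in spermatocytes, against 7.60 and 10.9 in wild type. Members numbered 296 in BD1del round spermatids, 176 in BD1del spermatocytes, 227 in wild-type round spermatids and 98 in wild-type spermatocytes.

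Similar totals on chromosome 14 came from partly different stretches. Of the wild-type round spermatid bases covered in the window, 46.8% were also covered in wild-type spermatocytes, and 47.4% the other way round. The covered shares of the 40 bins of 100 kb had a Spearman correlation of 0.550 between the BD1del stages and 0.587 between the wild-type stages. Across genotypes it was 0.342 in round spermatids and 0.267 in spermatocytes. These values are descriptions across neighbouring bins of the same libraries. From 43.3 to 43.4 Mb, islands covered 33.6% in wild-type round spermatids but 1.40% in wild-type spermatocytes. From 45.3 to 45.4 Mb they covered 31.2% in BD1del round spermatids, the densest bin of that list, against 12.4% in wild-type round spermatids and 61.0% in wild-type spermatocytes. BD1del spermatocytes had their densest bin from 44.1 to 44.2 Mb, at 34.2%, which was the densest of wild-type round spermatids as well, at 54.0%.

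The dense stretch began at the start of the chromosome 14 window and ended at about 45.5 Mb. In the last 100 kb before the window islands covered 1.60% in wild-type round spermatids and 0% in wild-type spermatocytes, and in the first 100 kb inside it they covered 26.4% and 15.2%. From 45.5 to 46.0 Mb, coverage was 6.16% in BD1del round spermatids and 6.08% in BD1del spermatocytes, against 3.52% in each wild-type list, so this end of the window resembled the flank. Without it, from 42.0 to 45.5 Mb, the shares were 9.73% in BD1del round spermatids, 10.2% in BD1del spermatocytes, 27.9% in wild-type round spermatids and 27.6% in wild-type spermatocytes. Across all 40 bins, 3 in BD1del round spermatids and 2 in BD1del spermatocytes were covered to at least 20%, against 27 in wild-type round spermatids and 21 in wild-type spermatocytes. Over all autosomal 100-kb bins the shares at that level were 0.927%, 1.36%, 1.81% and 2.03% in the same order.

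The longest members of all lay in this window. A wild-type spermatocyte island spanned 53.2 kb, from 43060001 to 43113200, at a fold of 1.09, with 2376 ChIP and 3885 control reads. It was covered to 1.88% in BD1del round spermatids, 7.89% in BD1del spermatocytes and 32.0% in wild-type round spermatids. Another of 51.2 kb, from 45299801 to 45351000, held the most ChIP reads of the window in that list, 2950, at a fold of 1.11. BD1del islands covered 56.3% of it in round spermatids and 45.7% in spermatocytes, and wild-type round spermatid islands 24.2%. The longest wild-type round spermatid member, from 44170401 to 44193800, had a fold of 1.11 over 23.4 kb and lay wholly within wild-type spermatocyte coverage. A short BD1del spermatocyte island, from 45289201 to 45293800, stood out in control reads, with 3427 of them on 4.60 kb, or 745 per kb, at a fold of 1.11.

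Among members with at least 10 control reads, short ones at the far end of the chromosome 14 window carried the highest folds in 3 of the 4 lists. With at least 10 control reads, the highest was 19.3 in BD1del round spermatids, from 45660801 to 45661000. In BD1del spermatocytes it was 15.8, from 45599601 to 45600000. In wild-type spermatocytes it was 5.19, from 45926801 to 45927000, within a BD1del round spermatid island. These 3 lay past 45.5 Mb, outside the dense stretch. They held 11, 10 and 10 control reads in that order, at or next to the limit, so the choice depends on it. Without the limit, the highest deposited fold in BD1del round spermatids was 436, in the bin from 44 Mb. That bin held 1 member with 0 control reads in this list, so the 436 may not be a plain ratio of reads. In wild-type round spermatids the highest fold was 8.71, from 42666401 to 42666600, also within a BD1del round spermatid island.

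Members had lower folds than the islands around them. The median fold over all 3 windows was 3.68 in BD1del round spermatids and 2.53 in BD1del spermatocytes, against 1.76 in wild-type round spermatids and 1.39 in wild-type spermatocytes. In the flanks it was 7.68, 4.13, 3.20 and 1.82 in that order, and over whole lists 7.05, 3.79, 2.72 and 1.67. A fold of at least 2 was reached by 352 of 420 members in BD1del round spermatids (83.8%), beside 98.3% of that list. It was reached by 150 of 227 in BD1del spermatocytes (66.1%), beside 93.5%. In wild-type round spermatids 130 of 369 members did so (35.2%), beside 75.3%, and in wild-type spermatocytes 28 of 186 (15.1%), beside 29.2%. The share below 2 was thus higher among members than in the whole list in all 4 lists. With islands of fold at least 2 alone, the chromosome 14 window was covered to 2.10% in wild-type round spermatids and 0.405% in wild-type spermatocytes, below the 2.77% and 0.665% of its flank.

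**Figure D3:**
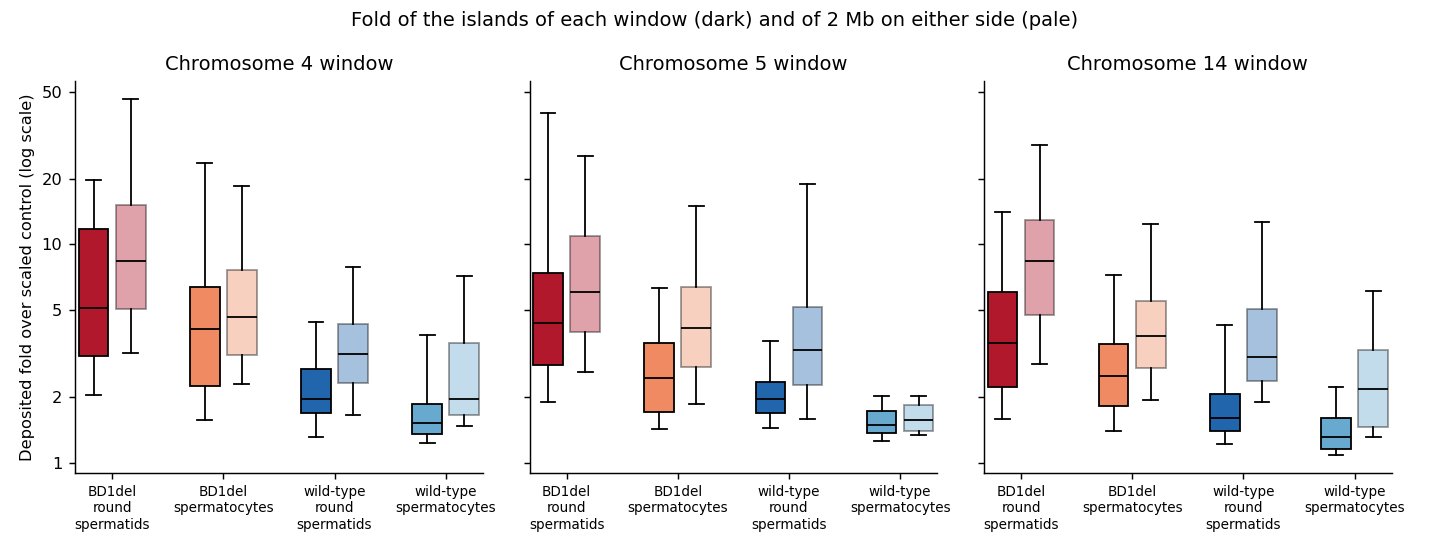
Deposited fold of single islands over scaled control (y axis, log scale) for each list, with dark boxes for islands of the window and pale boxes for islands of 2 Mb on either side; boxes give the quartiles and the median, whiskers the 5th and 95th percentiles. The dark median lies below the pale one in every list and window, from 1.49 against 1.57 in wild-type spermatocytes on chromosome 5 to 3.54 against 8.38 in BD1del round spermatids on chromosome 14.

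Summed over the members, ChIP reads were 2.83 times the scaled control reads in BD1del round spermatids (95% interval 2.77 to 2.88) and 2.01 times in BD1del spermatocytes (1.98 to 2.05). They were 1.54 times in wild-type round spermatids (1.52 to 1.55) and 1.25 times in wild-type spermatocytes (1.24 to 1.27). The intervals are exact and cover counting error only, and reads are not independent molecules. Chromosome 14 was lowest in every list, at 2.62, 1.95, 1.45 and 1.18 in the same order. Chromosome 4 gave 3.81, 2.90, 1.80 and 1.47, and chromosome 5 gave 3.46, 2.16, 1.83 and 1.44.

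Few members of wild type passed a strict threshold. An FDR of at most 1e-10 was met by 219 of 420 members in BD1del round spermatids (52.1%), beside 78.4% of that list, and by 85 of 227 in BD1del spermatocytes (37.4%), beside 65.7%. In wild-type round spermatids it was met by 53 of 369 (14.4%), beside 31.6%, and in wild-type spermatocytes by 35 of 186 (18.8%), beside 25.1%. The windows differed in this respect in wild-type spermatocytes, where 17 of 50 members on chromosome 4 and 11 of 38 on chromosome 5 passed, but 7 of 98 on chromosome 14. Those 7 covered 0.635% of the chromosome 14 window, against 0.675% in its flank, so the excess of wild-type spermatocytes over the flank was lost there. On chromosome 4 the members that passed in that list covered 15.9%, against 1.36% in the flank, and on chromosome 5 they covered 13.3%, against 1.06%.

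Members were longer than islands of the flank. Their median length was 1000 bases in BD1del round spermatids and 1800 in BD1del spermatocytes, against 2600 in wild-type round spermatids and 4200 in wild-type spermatocytes. In the flanks the medians were 400, 1200, 1400 and 2400 bases in that order. Islands of at least 10 kb numbered 0 of 420 in BD1del round spermatids, 1 of 227 in BD1del spermatocytes, 26 of 369 in wild-type round spermatids and 47 of 186 in wild-type spermatocytes. In the flanks they numbered 0 of 880, 1 of 502, 3 of 296 and 4 of 126 in that order. In wild-type spermatocytes the 47 held 65.8% of the bases of all members, beside 14.5% for the 4 in the flanks. On chromosome 14 alone 31 such members held 75.0%. From 3 to 9 Mb of chromosome 14, outside the windows, 144 such islands of that list held 80.7%. Whole-list shares of such islands were not analysed here. Islands of a single 200-base window made up 16.9% of the members in BD1del round spermatids, against 40.7% of the islands in the flanks. In every list the fold of members fell with their length, with Spearman correlations from -0.768 to -0.666 across islands.

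Control reads were denser in the members than in islands of the 2-Mb flanks, with exceptions in BD1del. Members held 62.6 control reads per kb of island in BD1del round spermatids and 79.9 in BD1del spermatocytes, against 67.5 in wild-type round spermatids and 65.4 in wild-type spermatocytes. In the flanks the same values were 43.5, 50.4, 37.5 and 40.7 per kb. The excess was largest on chromosome 14, at 67.3, 84.1, 73.6 and 73.8 per kb inside and 43.5, 51.4, 31.3 and 37.6 outside. On chromosome 4 the values inside were 49.8, 52.2, 52.6 and 49.6 per kb, and outside 38.8, 45.1, 36.0 and 34.5. On chromosome 5 they were 48.8, 68.1, 53.7 and 51.1 inside, and 48.8, 53.8, 42.3 and 46.7 outside. BD1del round spermatids on chromosome 5 thus showed no excess. Against flanks of 5 Mb, the ratio over all 3 windows was 1.0004 in BD1del round spermatids and 0.937 in BD1del spermatocytes, and 1.67 and 1.51 in the wild-type lists. On chromosome 5 alone it was 0.496 and 0.519 in the BD1del lists and 1.121 and 1.053 in the wild-type lists. Whole lists averaged 56.0 per kb in BD1del round spermatids, 66.0 in BD1del spermatocytes, 57.1 in wild-type round spermatids and 65.9 in wild-type spermatocytes. Members of wild-type spermatocytes, at 65.4, were thus no denser in control than their whole list. After removal of the 1% of islands densest in control, whole lists averaged 46.7, 55.3, 47.0 and 56.1 per kb in the same order.

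**Figure D4:**
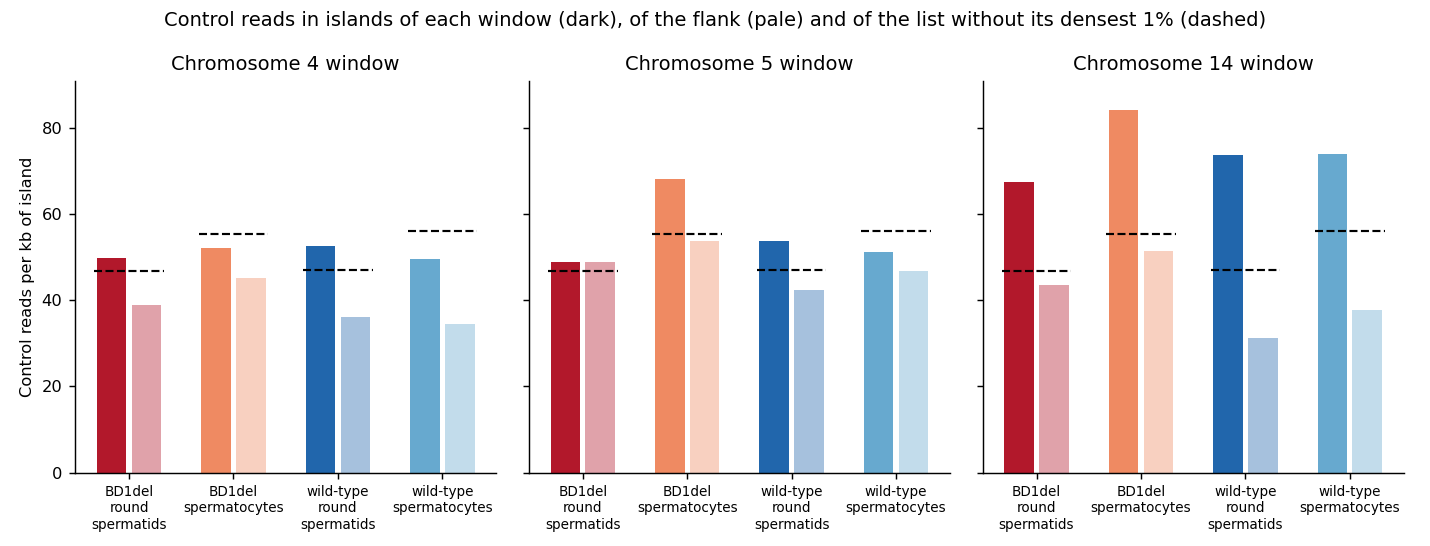
Control reads per kb of island (y axis) for each list, with dark bars for members of the window, pale bars for islands of 2 Mb on either side and a dashed line for the whole list without the 1% of islands of densest control. Chromosome 14 stands above its flank and above the dashed line in all 4 lists.

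The 2 sides of a flank differed in control reads in some lists. Before the chromosome 5 window, islands held 50.6 control reads per kb in BD1del round spermatids, 55.3 in BD1del spermatocytes, 49.2 in wild-type round spermatids and 47.4 in wild-type spermatocytes. After it they held 45.9, 51.7, 33.6 and 44.1. On chromosome 14 the sides gave 44.9, 55.0, 30.7 and 42.4 before the window and 42.6, 48.6, 32.5 and 30.2 after it. Those of chromosome 4 gave 38.2, 45.6, 39.0 and 34.3 before and 39.3, 44.7, 32.6 and 35.0 after. Across members, fold fell as control density rose, with Spearman correlations of -0.628 in BD1del round spermatids, -0.635 in BD1del spermatocytes, -0.577 in wild-type round spermatids and -0.701 in wild-type spermatocytes. Control reads enter the fold as its divisor, so such a relation is built in, and in the flanks the values were -0.584, -0.424, -0.564 and -0.407. The files give no reads outside islands, so control density of the uncovered parts was not analysed here. The part of dense control in the coverage of the windows was not tested.

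Most covered bases of the windows belonged to 1 genotype. Of the 6 Mb, 7.14% lay in a BD1del list and no wild-type list, 7.72% in lists of both genotypes and 29.8% in a wild-type list and no BD1del list. In the flanks the same shares were 8.97%, 0.890% and 5.14%. The share covered by BD1del alone was thus of similar size inside and outside, while the shares covered by both genotypes and by wild type alone were higher inside. Higher shares inside partly follow from the choice of the windows by coverage in these lists. Bases covered in all 4 lists amounted to 28.0 kb in the windows, of which 15.2 kb lay on chromosome 14, 12.6 kb on chromosome 5 and 0.2 kb on chromosome 4.

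**Figure D5:**
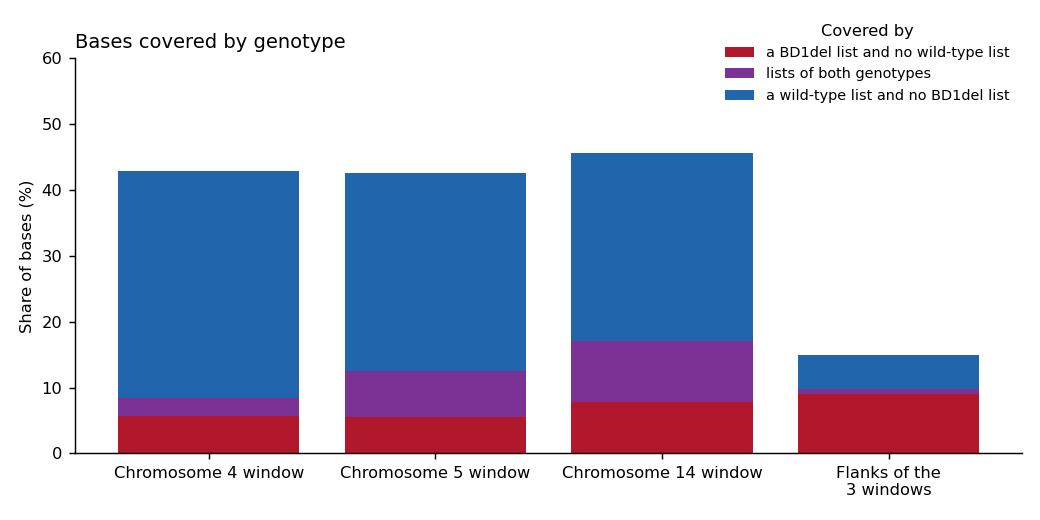
Share of bases (y axis, percent) covered by islands of BD1del alone, of both genotypes and of wild type alone, stacked for each window and for the flanks of the 3 windows together. The wild-type part makes up 34.4% of the chromosome 4 window, 30.1% of the chromosome 5 window and 28.6% of the chromosome 14 window, against 5.14% of the flanks.

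The share of BD1del islands that met a wild-type island of the same stage was higher among members than in the whole BD1del lists. Of the BD1del round spermatid members 142 of 420 (33.8%, exact 95% interval 29.3 to 38.6%) shared a base with a wild-type round spermatid island, beside 11.2% of that list. Of the BD1del spermatocyte members 71 of 227 (31.3%, 25.3 to 37.8%) met a wild-type spermatocyte island, beside 11.9%. Wild-type islands also cover more of the windows than of the genome at large, which bears on these shares. They took in 37.3% of the BD1del round spermatid bases, where they covered 23.8% of the windows. In spermatocytes they took in 34.2% of the BD1del bases, where they covered 25.4% of the windows. On chromosome 4 the BD1del spermatocyte bases were covered to 24.1% by wild-type spermatocyte islands, less than the 31.0% of the whole window.

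Seen from wild type, the share that met a BD1del island was near that of the whole list in round spermatids and lower in spermatocytes. Of the wild-type round spermatid members 101 of 369 (27.4%, 22.9 to 32.2%) met a BD1del round spermatid island, beside 29.1% of that list. In spermatocytes 50 of 186 (26.9%, 20.7 to 33.9%) did so, beside 35.0%. Chromosome 14 held 37 of these 50 spermatocyte islands, chromosome 5 held 7 and chromosome 4 held 6. On chromosome 14 alone the shares were 30.4% in round spermatids and 37.8% in spermatocytes, slightly above those of the whole lists. Over all 3 windows, when at least 50% of the island had to be covered, the shares were 6.78% in round spermatids and 3.23% in spermatocytes. The whole-list shares under that rule were not analysed here.

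Between stages, the shares of members that met were lower in BD1del than in wild type, and so were those of the whole lists, with no test of the difference. Of the BD1del round spermatid members 85 of 420 (20.2%, 16.5 to 24.4%) met a BD1del spermatocyte island, beside 13.9%, and the other way round it was 80 of 227 (35.2%, 29.0 to 41.8%), beside 24.2%. Of the wild-type round spermatid members 173 of 369 (46.9%, 41.7 to 52.1%) met a wild-type spermatocyte island, beside 30.3% of that list, and of the spermatocyte members 128 of 186 (68.8%, 61.6 to 75.4%) met a round spermatid island, beside 58.9%. On chromosome 5, 31 of 38 wild-type spermatocyte members met a wild-type round spermatid island. On chromosome 4 the same count was 28 of 50. The windows were picked for their coverage, which raises the share of members that meet another list. Spermatocyte islands covered 7.99% of the windows in BD1del and 25.4% in wild type, and round spermatid islands 8.41% and 23.8%. These values bear on the shares of both genotypes.

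Members that met all 3 other lists numbered 20 in BD1del round spermatids (4.76%, beside 3.52% of the list), 19 in BD1del spermatocytes (8.37%, beside 6.26%), 27 in wild-type round spermatids (7.32%, beside 9.65%) and 34 in wild-type spermatocytes (18.3%, beside 19.9%). Pooled over the windows, these shares lay close to those of the whole lists, but single windows differed. On chromosomes 4, 5 and 14 they were 1.59% (1 of 63), 11.5% (7 of 61) and 4.05% (12 of 296) in BD1del round spermatids. In BD1del spermatocytes they were 5.26% (1 of 19), 18.75% (6 of 32) and 6.82% (12 of 176). Wild-type round spermatids gave 1.64% (1 of 61), 6.17% (5 of 81) and 9.25% (21 of 227). Wild-type spermatocytes gave 10.0% (5 of 50), 10.5% (4 of 38) and 25.5% (25 of 98). Several of these shares rest on few islands, and the differences were not tested. Members that met no other list numbered 187 in BD1del round spermatids (44.5%, beside 77.7%), 81 in BD1del spermatocytes (35.7%, beside 67.4%), 130 in wild-type round spermatids (35.2%, beside 48.9%) and 39 in wild-type spermatocytes (21.0%, beside 24.2%). The choice of the windows by coverage bears on these lower shares too.

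The windows were set beside 2 other dense blocks, at the proximal ends of chromosomes 14 and 1. Islands covered 13.0% of chromosome 14 from 3 to 9 Mb in BD1del round spermatids and 5.77% in BD1del spermatocytes, against 41.7% in wild-type round spermatids and 67.3% in wild-type spermatocytes. In the window from 42 to 46 Mb the wild-type values were lower and closer to each other. Islands of the window held 67.3, 84.1, 73.6 and 73.8 control reads per kb in BD1del round spermatids, BD1del spermatocytes, wild-type round spermatids and wild-type spermatocytes, against 83.7, 117, 82.3 and 74.1 in the proximal block. ChIP reads over scaled control reads were 2.62, 1.95, 1.45 and 1.18 in the window and 1.92, 1.60, 1.38 and 1.28 in the proximal block, in the same order. Wild-type spermatocytes were thus the only one of the 4 lists with the lower ratio in the window. On chromosome 1 from 3 to 24 Mb the coverage was 14.2% in BD1del round spermatids, 14.95% in BD1del spermatocytes, 37.7% in wild-type round spermatids and 47.6% in wild-type spermatocytes. The members of the 3 windows held 62.6, 79.9, 67.5 and 65.4 control reads per kb in that order, against 54.8, 62.8, 58.8 and 47.6 in the islands of this block. These differences between blocks had no test.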

How the data were processed

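The 4 lists of islands, each from 1 anti-Brdt ChIP library, were used as deposited. Per the submitters' processing notes, the authors used SICER and the mm9 build, with windows of 200 bases and gaps of 600 bases, per the labels of the lists. The aligner, duplicate handling and the input behind each list are not given in the sources used here. Columns held ChIP and control counts as deposited by the authors, without normalization, a deposited p-value and FDR (below 0.01), and the fold, a deposited ratio of ChIP to control reads scaled by library size. From counts and fold the ratio of library sizes was computed for each list. No columns of other samples were present.

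Members were islands that start inside a window. Coverage counts bases inside the window, and reads are those of whole islands. Overlap means at least 1 shared base. Named islands were the longest, the one with most ChIP reads and, at 10 or more control reads, the one of highest fold, per window and list. The windows and these choices were made with earlier results of the same data known. Coordinates are 1-based. Coverage, overlap and library ratios were tested on simulated data with known answers. Python 3.11.15, pandas 2.3.3 and scipy 1.17.1 were used. As alternatives, islands were limited to an FDR up to 1e-10, to folds from 2 upward or to the 10000 of lowest p. Others were removal of the 1% of densest control, flanks of 5 Mb, merging within 1000 bases, whole island lengths, islands of at least 1000 bases, at least 10 control reads and overlap of at least 50%. The deposited lists give no reads outside islands, so total depth is unknown.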

Additional observations from a re-analysis of the deposited data

Results flagged for a closer look

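On chromosome 4, with all deposited islands, the stages moved in opposite directions in the 2 genotypes, with 1 library each and no test of the difference. Covered share in round spermatids minus that in spermatocytes was 2.92 percentage points in BD1del and -15.0 in wild type. With islands of fold at least 2 alone, round spermatids had the larger share in both genotypes. The values were 5.14% against 1.58% in BD1del and 4.54% against 2.94% in wild type. On chromosome 14, with all islands, the signs were also opposite, but the sizes were small, -0.365 points in BD1del and 0.340 in wild type.

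Relative to its flank, the chromosome 4 window was sparser in BD1del spermatocytes, at a ratio of 0.578, and denser in wild-type spermatocytes, at 11.02. The stages of BD1del also fell on either side of 1, with 1.11 in round spermatids and 0.578 in spermatocytes. None of these differences was tested.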

How the results depend on the processing

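No paired analysis was possible because each group had 1 library. The windows were chosen on coverage, so the stricter settings bear mainly on how weak the islands were. Where values moved, the cause was not tested, beyond what fewer islands bring by construction. Labels rest on exact intervals over 200-base steps or counts, which ignore the dependence of neighbours.

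Values below are in the order BD1del round spermatids, BD1del spermatocytes, wild-type round spermatids, wild-type spermatocytes. The ratio of covered share to flank over all 3 windows was 0.979, 0.688, 3.27 and 5.14 with an FDR of at most 1e-10, 1.25, 0.823, 1.22 and 1.501 with a fold of at least 2, and 0.473, 0.429, 2.46 and 5.32 with the 10000 islands of lowest p. Flanks of 5 Mb gave 1.69, 1.37 and, in wild-type spermatocytes, 9.17, and merging gave 1.69 in BD1del round spermatids.

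By window, ratios that crossed 1 were, on chromosome 4 in BD1del round spermatids, 0.683 (FDR), 0.986 (fold) and 0.178 (10000 islands). On chromosome 5 in BD1del spermatocytes they were 0.503 (FDR), 0.646 (fold) and 0.832 (5 Mb flank). On chromosome 14 they were 0.936 (FDR) and 0.378 (10000 islands) in BD1del round spermatids, 0.958 and 0.917 for the same settings in BD1del spermatocytes, 0.758 (fold) in wild-type round spermatids and 0.941 (FDR) and 0.609 (fold) in wild-type spermatocytes.

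Control reads per kb relative to the flank were 1.14, 1.16, 2.00 and 1.57 with the strict FDR. With 5 Mb flanks they were 1.0004, 0.937, 1.67 and 1.51. They were 1.41 and 1.46 in the BD1del lists without the densest 1% and 1.52 in BD1del round spermatids for islands of at least 1000 bases. Single windows crossed 1 on chromosome 4 in BD1del spermatocytes (0.739, FDR) and on chromosome 5 in BD1del round spermatids (0.924, FDR, and 0.496, 5 Mb flank), BD1del spermatocytes (0.519, 5 Mb flank) and wild-type spermatocytes (0.932, FDR).

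ChIP over scaled control reads was 4.71, 3.61, 1.81 and 1.4995 with the strict FDR, 2.10 in BD1del spermatocytes without the densest 1% and 2.69 in BD1del round spermatids with at least 10 control reads.

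The percentage of members that met an island of the other genotype at the same stage was 7.31, 3.53 and, in wild-type spermatocytes, 8.57 with the strict FDR, 5.11, 1.33, 13.8 and 7.14 with the fold limit, and 0, 14.3, 0 and 2.56 with the 10000 islands of lowest p. For the other stage of the same genotype it was 4.57, 11.8, 24.5 and 37.1 with the strict FDR, 7.67, 17.3, 10.8 and 50 with the fold limit, and 0, 0 and, in wild-type spermatocytes, 25.6 with the 10000 islands. Overlap of at least 50% gave 6.78 and 3.23 in the wild-type lists for the other genotype, and 14.5, 16.7, 41.2 and 44.1 for the other stage. Members left numbered 219, 85, 53 and 35 with the strict FDR and 352, 150, 130 and 28 with the fold limit. With the 10000 islands only 9, 7, 21 and 39 were left, so single islands move those percentages and differences between them carry no weight. Whole-list shares under these settings were not analysed here.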
